A study of Mus musculus with 5 samples.

Results

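The Groucho/TLE corepressors Tle1, Tle2, Tle3 and Tle4 were examined for NEUROD2 binding in embryonic mouse cortex. Peaks were taken from the lists of 3 NEUROD2 antibodies if their midpoint lay in the gene, spanned by its longest transcript, or up to 50 kb from either end. Overlapping peaks were merged into regions. The 4 loci held 71 peaks in 38 regions, of 53833 regions in the whole genome. A region with peaks of at least 2 antibodies is called shared here. Of the 38, 24 were shared (63.2%), near the 59.9% of regions of the whole genome. All 4 gene symbols were found once each in the annotation, and the peak lists measure binding only, so neither transcripts nor proteins of the genes were measured.

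Chromatin came from the cerebral cortex of BALB/c embryos at day E14.5, with tissue of many embryos from several litters pooled for each experiment. It was precipitated with antibody ab1, raised in mouse, or with ab2 or ab3, both raised in rabbit, and GFP antibodies of the same host species served as controls. NEUROD2 is a basic helix-loop-helix transcription factor of excitatory cortical neurons, and cortex at this age holds progenitors and neurons together. Each antibody gave 1 library of untreated tissue. No test between groups was therefore possible, and the 3 antibodies are 3 measurements of a single condition.

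Peaks carry a score, which MACS computes as −log10 p multiplied by 10, and the lowest score listed was 50. It was not scaled between libraries, and the depth behind each value is unknown from peak lists. The lists differ in length, since ab1 gave 51837 peaks on the assembled chromosomes, ab2 35309 and ab3 only 7470. A missing ab3 peak is therefore common. Scores of ab2 and ab3 also share a control library.

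Groucho/TLE proteins do not bind DNA themselves. They are brought to genes by transcription factors that carry short peptide motifs, among them HES proteins, SIX3 and the TCF/LEF factors of the Wnt pathway, and they then repress transcription with the help of histone deacetylases. Through HES proteins they take part in Notch signaling and in the upkeep of neural progenitors. TLE4 is widely used as a marker of corticothalamic neurons of layer VI. Further family genes encode short or divergent proteins, Aes (also named Tle5) and Tle6, and both lie next to Tle2.

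NEUROD2 and related factors bind E-boxes. The motif searched was the extended E-box used for NEUROD2, with CAGCTG as one core, CAGATG and its reverse complement CATCTG as another, and also CATATG, each followed by G or T, read on both strands. Most results below turn on regions far from promoters, so the central 200 bp of the highest ab1 region with such a motif is shown for each gene. The sequence is that of the plus strand of GRCm38 (mm10), with the 6 bases of each E-box in capitals. The Tle1 stretch lies at chr4:72166547-72166746 in intron 6. The Tle2 stretch lies at chr10:81526812-81527011, upstream of the gene and in exon 2 of the long noncoding gene Gm47697. The Tle3 stretch lies at chr9:61433930-61434129, between genes and downstream of Tle3. The Tle4 stretch lies at chr19:14508989-14509188 in intron 8.
Tle1 +34.3 kb: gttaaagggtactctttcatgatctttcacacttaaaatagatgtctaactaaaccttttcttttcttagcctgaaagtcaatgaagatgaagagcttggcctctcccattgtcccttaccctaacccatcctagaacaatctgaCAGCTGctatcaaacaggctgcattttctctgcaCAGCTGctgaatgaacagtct
Tle2 −47.6 kb: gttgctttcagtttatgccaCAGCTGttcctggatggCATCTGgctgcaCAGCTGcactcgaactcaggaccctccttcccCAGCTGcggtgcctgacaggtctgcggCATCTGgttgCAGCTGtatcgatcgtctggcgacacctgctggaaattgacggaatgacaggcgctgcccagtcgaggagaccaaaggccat
Tle3 +61.7 kb: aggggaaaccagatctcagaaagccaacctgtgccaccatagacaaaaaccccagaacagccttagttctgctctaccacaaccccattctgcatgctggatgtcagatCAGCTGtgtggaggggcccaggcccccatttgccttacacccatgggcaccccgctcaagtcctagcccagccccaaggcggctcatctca
Tle4 +89.0 kb: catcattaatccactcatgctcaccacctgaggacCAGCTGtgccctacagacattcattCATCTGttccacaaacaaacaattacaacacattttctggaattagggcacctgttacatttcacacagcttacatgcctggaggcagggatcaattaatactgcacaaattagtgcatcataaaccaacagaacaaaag
The Tle1 stretch holds 2 E-boxes, both CAGCTG. The Tle2 stretch holds 6 E-boxes, a number that 85 of the 32261 shared regions of the genome reached or passed. The Tle3 stretch holds 1 E-box, which lies 11 bp from the midpoint of the region. The Tle4 stretch holds 2, one CAGCTG and one CATCTG.

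Binding was found at the start site of Tle1, Tle3 and Tle4 and not at that of Tle2. A shared region lay within 1000 bp of the start of the longest-span transcript in those 3 genes of the 4, beside 20.8% of the 21938 protein-coding genes. The count was 1, Tle4, within 500 bp of the start, and also 1 when ab1 or ab2 was left out. All 4 genes had at least 1 shared region in their window, beside 67.6% of protein-coding genes. Regions with peaks of all 3 antibodies were present at Tle3 and Tle4, beside 26.7% of protein-coding genes. With 4 genes these counts are given as a description.

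**Figure D1:**
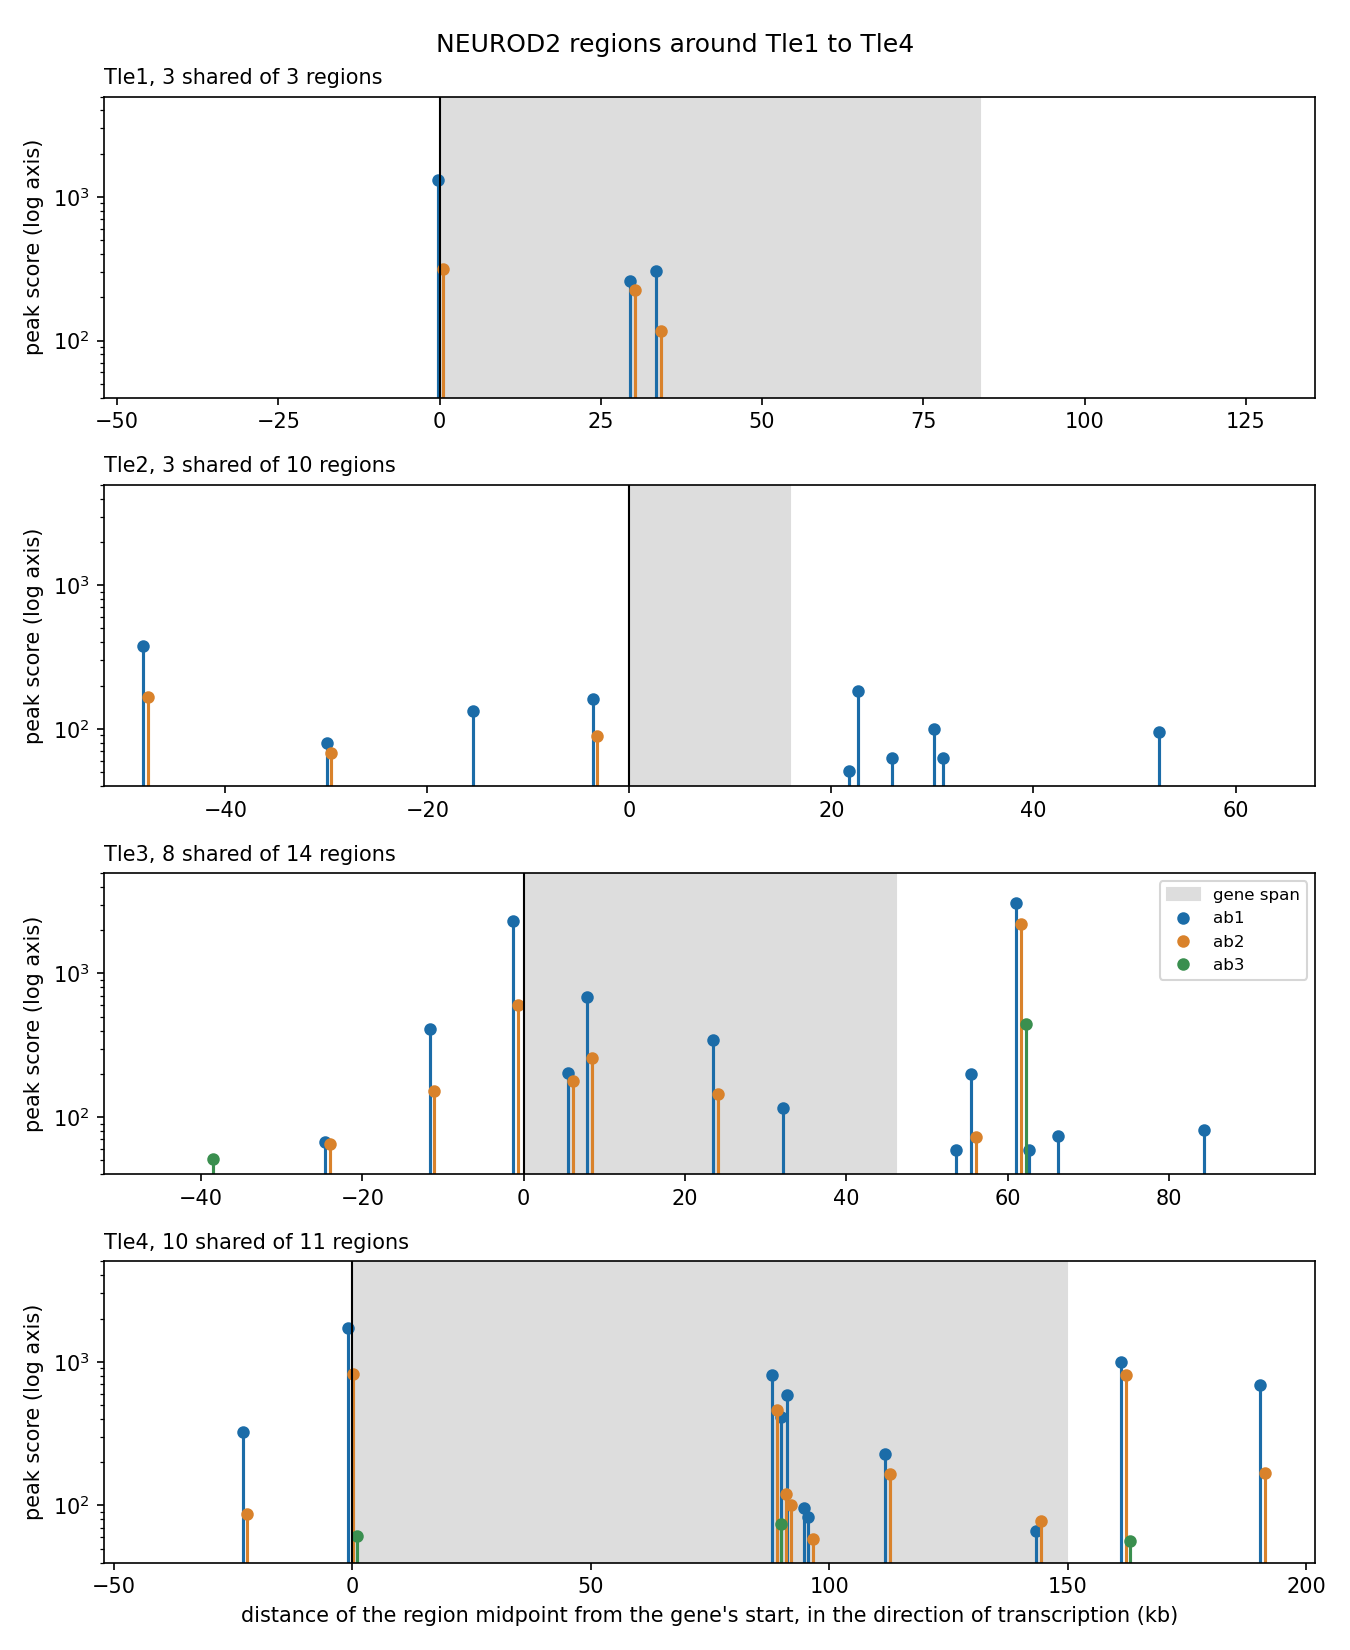
Each panel shows 1 gene, with the distance of each region's midpoint from the gene's start in kb on the x axis and the highest peak score of each antibody in that region on a log y axis. The 3 antibodies of a region are drawn side by side, gray marks the gene's span and the black line its start. Tle1, Tle3 and Tle4 have high scores in the region at the start, and for Tle3 these come from peaks that end upstream of it. Tle3 and Tle4 also have high scores beyond the end of the gene, and Tle2 has none inside the gene.

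Tle1 lies on the minus strand of chromosome 4, from 72117142 to 72200919, and its window of 184 kb held 3 regions, all shared by ab1 and ab2, so that none was shared without either of these antibodies. The first region spans chr4:72198686-72202092 and covers the start, with its midpoint 530 bp into the gene in the 5′UTR part of exon 1. Its score was 1318 with ab1 and 317 with ab2, and ab3 had no peak. The median ab1 score of shared regions in the genome was 278, and this region was at the 89.2 percentile.

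The region at the Tle1 start was also broad. Its 3407 bp placed it at the 98.7 percentile among the 4101 shared regions within 1000 bp of a coding start, whose median width was 1312 bp. It covers 8 of the 10 annotated starts of Tle1 and also that of C630043F03Rik, a noncoding gene that starts 0.429 kb upstream and runs the other way, so the peak cannot be given to either gene alone. The ab1 score was 4.16 times that of ab2, at the 96.2 percentile of this ratio over 32210 regions.

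The other Tle1 regions lie close together in the middle of the gene. One spans chr4:72170304-72171067 in intron 5, 30.2 kb from the start, with scores of 260 with ab1 and 226 with ab2. The other spans chr4:72166309-72166986 in intron 6, 34.3 kb from the start, with scores of 305 and 117. They flank the start of Gm11250, an antisense gene within Tle1. Their ab1 scores, at the 47.6 and 53.5 percentiles, were near the middle of all shared regions, and each held 2 extended E-boxes in its center, one of them CAGATG in the intron 5 region.

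Tle2 lies on the plus strand of chromosome 10, from 81574561 to 81590466, in a window crowded with other genes. The longest-span transcript is annotated as a transcript with a retained intron, and it starts upstream of the start that RefSeq gives. Of 10 regions in the window, none had its midpoint within Tle2. Of the 10, 3 were shared, beside 59.9% of regions of the whole genome, and all 3 lay upstream. The number of shared regions was 1 with 20 kb at each end of the gene and 6 with 100 kb. It was 1 with scores of at least 100 and 0 without ab1 or without ab2. The remaining 7 of the 10 were seen with ab1 alone, beside 18825 of the 53833 regions of the genome.

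The shared region nearest to the Tle2 start spans chr10:81570488-81572252 and lies 3.19 kb upstream, with scores of 161 with ab1 and 88.8 with ab2. These were at the 30.0 and 29.7 percentiles of shared regions. A second spans chr10:81544266-81545824 and lies 145 bp into Gna11, which encodes a G protein alpha subunit, with scores of 80.2 and 67.4. The third and highest, at chr10:81526599-81527226, scored 378 and 167. It lies 47.6 kb from Tle2, and the nearest coding start is that of Gna15. Only the region nearest to Tle2 was closer to its start than to that of another coding gene.

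Several regions seen with ab1 alone near Tle2 were at starts of other genes, of which this window holds many. Of the 7, 4 lay within 1000 bp of a coding start, namely those of Aes, Tle6, BC025920 and Sirt6, the last a deacetylase of the sirtuin family. Of the 18825 regions seen with ab1 alone in the genome, 15.6% lay that close to a coding start. Their scores were 133 at Aes, 62.8 at Tle6, 62.2 at BC025920 and 95.8 at Sirt6. The highest ab1 score without an ab2 peak, 184, lay in intron 4 of Tle6. Of the 13 regions seen with ab1 alone in the 4 windows, scores ran from 51.0 to 184 with a median of 81.5, near the median of 77.6 over such regions of the genome.

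Tle3 lies on the plus strand of chromosome 9, from 61372366 to 61418497. Its window of 146 kb held 14 regions, the largest number of the 4 loci, and 8 were shared, or 1 when ab1 or ab2 was left out. These 8 were spread over both sides of the gene, with 3 upstream, 3 inside and 2 downstream. Tle3 is the closest coding start to all 8.

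The region at the Tle3 start spans chr9:61368433-61374852 and was made of 2 adjoining peaks of each antibody. The upstream pair, ending before the start, scored 2302 with ab1 and 603 with ab2. The pair over the start and the beginning of the gene scored 700 and 261. Merged, they form a region of 6420 bp, and only 2 of the 32261 shared regions of the genome were wider. That width rests on an overlap of 85 bp between an ab2 peak and an ab1 peak. When an overlap of 50% of the shorter peak was required, the region divided into parts of 3519 and 2986 bp, which ranked 142 and 310 in width among 32366 shared regions. It covers 14 of the 18 annotated starts of Tle3 and the start of the noncoding gene Gm10655 on the other strand. No ab3 peak was listed there.

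The highest scores of all 4 loci were downstream of Tle3. The region at chr9:61433300-61434761 lies 61.7 kb from the start and 15.5 kb beyond the end of the gene, in a stretch with no annotated gene. It scored 3100 with ab1, 2204 with ab2 and 444 with ab3. An ab1 score of 3100 or more was reached by 726 of 32246 shared regions with an ab1 peak, and 657 of them had exactly 3100, so their order is not resolved by ab1. By ab2 the region ranked 302 of 32225 and by ab3 313 of 7211. The nearest annotated start of any kind is that of Gm34322, a noncoding gene, 8.56 kb away.

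Weaker regions accompanied it. Inside Tle3, intron 4 held a region at +8.45 kb with scores of 690 with ab1 and 257 with ab2, and another at +6.11 kb with 202 and 179. Intron 6 held one at +24.0 kb with 343 and 145. Upstream, the region at −11.1 kb scored 410 and 152, and the one at −24.1 kb scored 66.8 and 65.2. The single-antibody regions had scores of at most 115, and one of them, at −39.1 kb, was seen with ab3 alone at a score of 51.3. Thus the upstream pair of the start region and the downstream region had the highest scores of the locus with both ab1 and ab2, and the pair over the start itself scored about as high as the region at +8.45 kb.

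Tle4 lies on the minus strand of chromosome 19, from 14448150 to 14598051. It is the longest of the 4 genes, with a span of 150 kb, and no other annotated gene starts in its window. All but 1 of its 11 regions were shared, beside 59.9% of regions of the whole genome. Peaks of all 3 antibodies were held by 3 regions, at the start, inside the gene and beyond its end. Without ab1 or without ab2 these 3 were the shared regions, and with scores of at least 100 none of them had all 3 antibodies.

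The region at the Tle4 start spans chr19:14596601-14599324, with its midpoint 89 bp into the 5′UTR of exon 1. It scored 1708 with ab1, 816 with ab2 and 61.6 with ab3. An ab3 peak at such a place was uncommon in these lists, with 7.95% of shared regions at coding starts holding one. The ab3 score was low for that antibody, at the 21.1 percentile. With 2724 bp the region was at the 96.0 percentile of width among shared regions at coding starts.

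Inside Tle4, intron 8 held a group of regions around 90 kb from the start. The strongest, at chr19:14508747-14509432 and +89.0 kb, had peaks of all 3 antibodies with scores of 806, 458 and 74.3. Next to it lay a region at +90.8 kb with 414 with ab1 and 119 with ab2, and another at +92.0 kb with 586 and 100. The last had the highest ratio of ab1 to ab2 in the 4 loci, 5.86, at the 99.2 percentile. Fainter regions followed at +95.7 kb, seen with ab1 alone at 96.7, and at +96.5 kb, with 82.6 and 58.7. The same intron held 1 more region at +113 kb, with 226 and 166.

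Downstream of Tle4, the region at chr19:14435377-14436467 lies 12.2 kb past the end of the gene. Its scores were 992 with ab1, 808 with ab2 and 56.9 with ab3, so that ab2 came close to its score at the start site. A region 41.4 kb past the end scored 684 and 168. Upstream, the single region at −22.0 kb scored 322 and 87.4. The region in coding exon 16 was the only one of the 24 in which ab2 exceeded ab1, with 77.6 against 66.8.

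**Figure D2:**
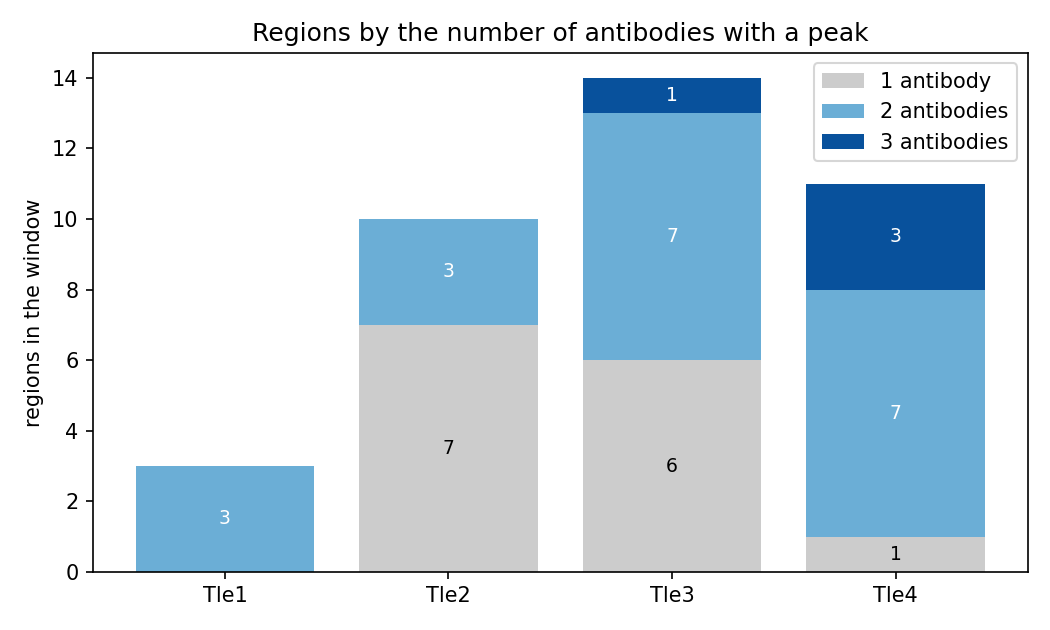
Bars give the number of regions in each gene's window, divided by the number of antibodies that had a peak in the region. Tle1 has 3 regions, all of 2 antibodies, Tle2 has 7 of its 10 with 1 antibody, Tle3 has 14 with 1 of all 3 antibodies, and Tle4 has 11 with 3 of all 3 antibodies.

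Across the 4 loci, the shared regions divided into 13 inside the genes, 7 upstream and 4 downstream. Of those inside, 10 had their midpoint in an intron and 3 in an exon. For 22 of the 24 the nearest coding start was that of the family member itself, and both exceptions belong to Tle2. Peaks of all 3 antibodies were found in 4 of the 24, or 16.7% (95% exact binomial interval 4.74 to 37.4%, counting error only), beside 22.2% of all shared regions. The remaining 20 had peaks of ab1 and ab2.

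Scores varied widely within the family. The ab1 score of the 24 regions ran from 66.8 to 3100 with a median of 360, and the ab2 score from 58.7 to 2204 with a median of 159. The medians of all shared regions were 278 for ab1 and 140 for ab2. The ab1 score exceeded that of ab2 in 23 of 24 regions, with a median ratio of 2.18 beside 1.84 over the genome. Most regions of the genome also had the higher score with ab1, since a ratio of 1.03 was at the 11.9 percentile. The 4 regions of all 3 antibodies had ab2 scores of 458 or more. Among the other 20 only the merged region at the Tle3 start reached such a score. It did so by its ab2 peak upstream of the start, with 603, and the ab2 peak over the start scored 261.

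**Figure D3:**
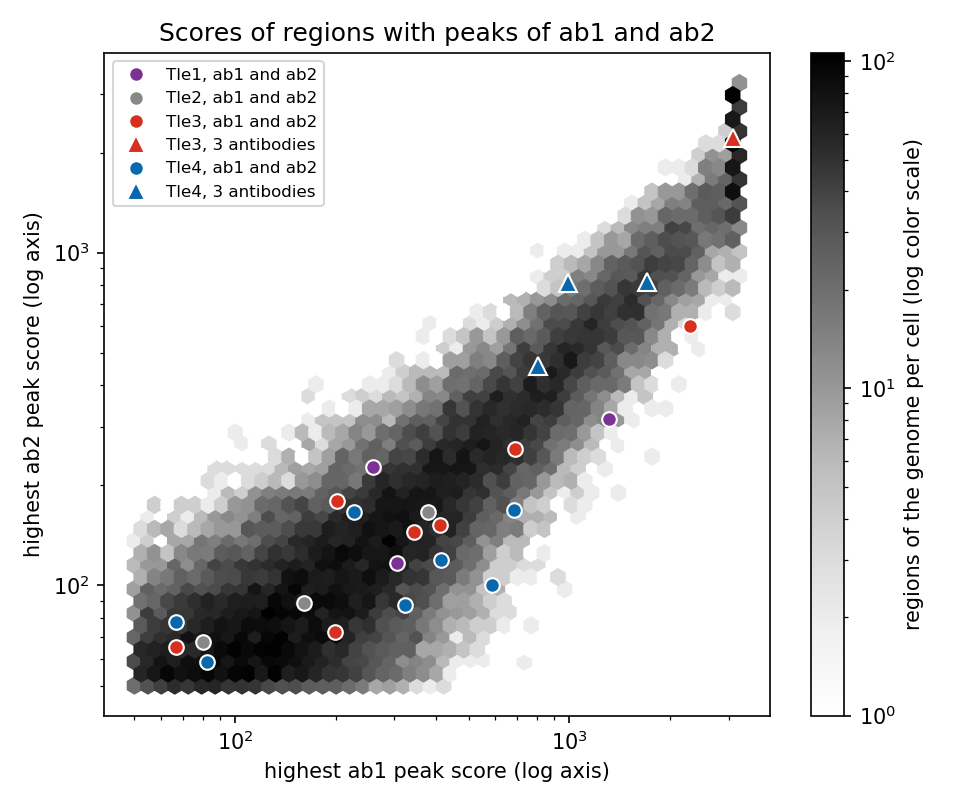
The highest ab1 score of a region is on the x axis and the highest ab2 score on the y axis, both on log axes, and gray cells count the 32210 regions of the genome with peaks of both. The colored points are the 24 shared regions of the 4 genes, with triangles for the 4 that also had an ab3 peak. The triangle at upper right is the region downstream of Tle3, at 3100 and 2204. The start regions of Tle1 and Tle3 lie along the lower edge of the cloud, that of Tle3 by the scores of its upstream peaks.

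Corrected for the length of the window, Tle3 and Tle4 had more shared regions than most genes and Tle1 did not stand out. The density was 5.47 shared regions per 100 kb for Tle3, 4.00 for Tle4, 2.59 for Tle2 and 1.63 for Tle1, and the median protein-coding gene had 0.950. Tle3 was at the 96.3 percentile of protein-coding genes, Tle4 at 91.8, Tle2 at 77.7 and Tle1 at 61.8. The order of Tle3 and Tle4 turned when ab1 or ab2 was left out, with Tle3 at 79.5 and Tle4 at 93.2 in both cases. Tle1 and Tle2 both fell to 36.6 in these cases, with no shared region left.

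The ranks can be compared with those from the peaks of single antibodies. For Tle3 they were 98.6 with ab1, 98.0 with ab2 and 93.5 with ab3 (mean 96.7 ± 2.79, SD over n = 3 antibodies). For Tle4 they were 80.3, 90.0 and 92.8 (87.7 ± 6.56). For Tle2 they were 98.0, 74.5 and 36.3 (69.6 ± 31.1). For Tle1 they were 43.4, 58.4 and 36.3 (46.0 ± 11.3). Tle1 and Tle2 had no ab3 peak, like most genes, and tied at 36.3 with that antibody. Tle2 ranked above Tle1 with ab1 and with ab2. The rank of Tle2 was high with ab1 and depended on the antibody more than that of any other member. Tle3 ranked above Tle4 with each antibody, by a small margin with ab3.

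**Figure D4:**
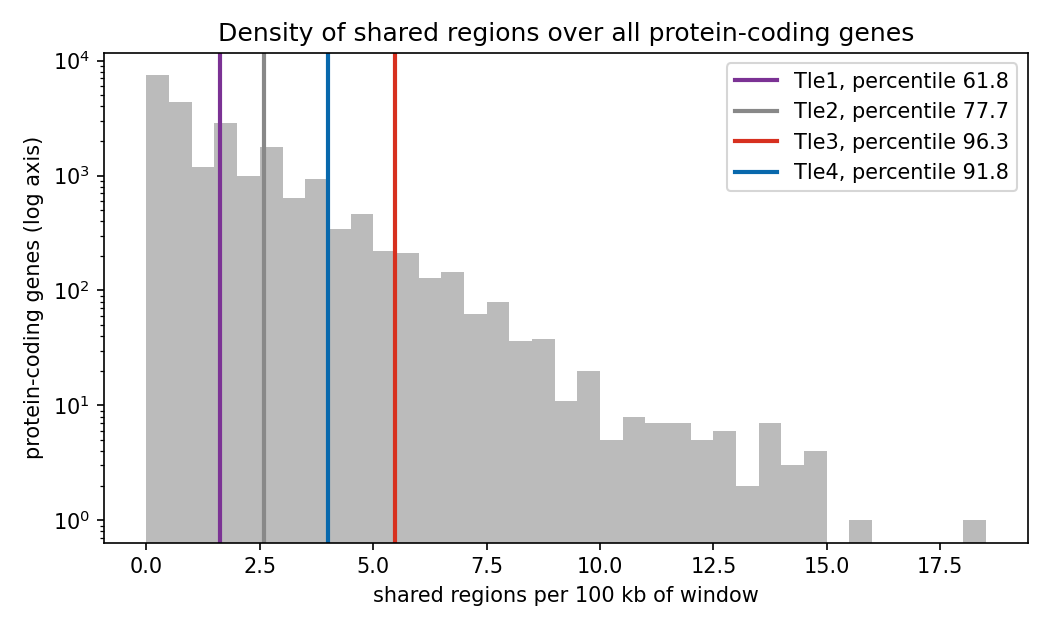
The gray histogram counts protein-coding genes, on a log y axis, by the number of shared regions per 100 kb of their window, and colored lines mark the 4 genes. Tle1 at 1.63 and Tle2 at 2.59 lie in the bulk, and Tle4 at 4.00 and Tle3 at 5.47 lie towards the upper tail.

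By the peaks per 100 kb of each antibody, on a scale of log2(value + 1), the genes most like each member were Cgnl1 and Cd34 for Tle1, Pygm and Nr2f1 for Tle2, Celf4 and E130114P18Rik for Tle3, and Cul1 and Arvcf for Tle4. Tle3 had 10.3 peaks per 100 kb with ab1, 6.84 with ab2 and 1.37 with ab3, and Celf4, which encodes an RNA-binding protein of neurons, had 10.6, 6.64 and 1.33. Tle4 had 4.40, 4.00 and 1.20, and Cul1, which encodes a ubiquitin ligase scaffold, had 4.66, 4.07 and 1.16. These likenesses rest on 3 antibodies of 1 tissue and on peak counts alone.

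An extended E-box was present in the central 200 bp of 13 of the 24 shared regions, or 54.2% (95% exact binomial interval 32.8 to 74.4%). Over all shared regions the share was 59.7%. In windows of the same length starting 1000 bp beyond both ends of the 24 regions it was 8 of 48, or 16.7%, beside 22.3% on either side of all shared regions. The 13 regions held 23 E-boxes in their centers, 13 of the form CAGCTG and 10 of the form CAGATG (or CATCTG on the other strand). CATATG was not among them. Searched over their whole length, all 24 regions held at least 1 extended E-box, but the longer the region the more sequence was searched.

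Over the genome, the share was 20.8% for shared regions within 1000 bp of a coding start and 65.4% for those farther away. In the 4 loci it was 1 of 4 regions near a coding start and 12 of 20 farther away (60.0%, interval 36.1 to 80.9%). The one E-box near a start was a CATCTG at Tle3, 61 bp from the midpoint of the merged region and inside the upstream pair of peaks, and none lay in 200 bp around the middle of its higher peak. The region downstream of Tle4, with peaks of all 3 antibodies and 808 with ab2, had no extended E-box in its center and 1 over its whole length.

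**Figure D5:**
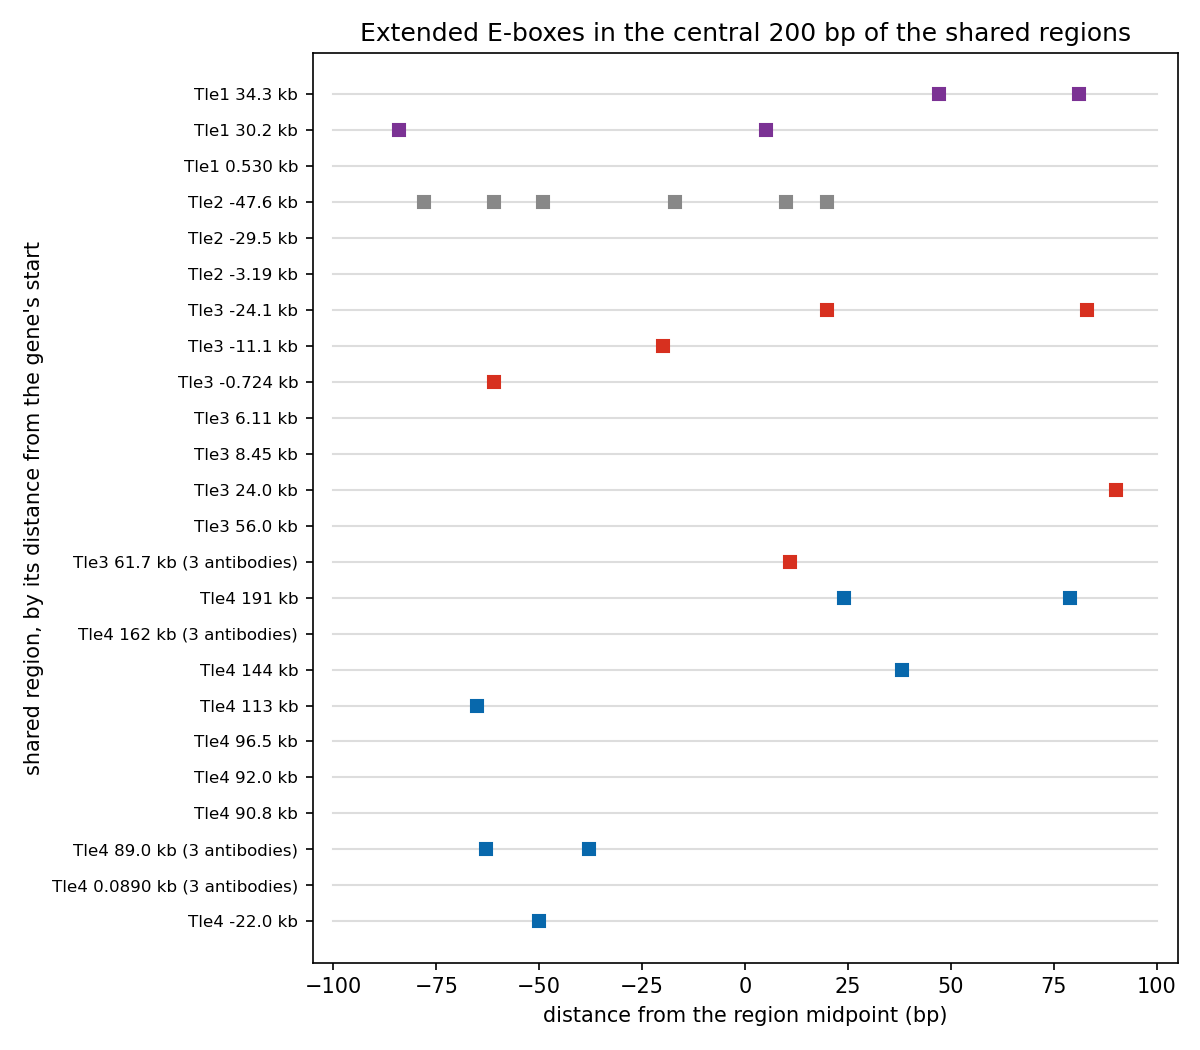
Each line is the central 200 bp of 1 of the 24 shared regions, labeled with its distance from the gene's start, and squares mark extended E-boxes at their distance in bp from the midpoint. The start regions of Tle1 and Tle4 are empty, the region 47.6 kb upstream of Tle2 holds 6, and the region 61.7 kb downstream of the Tle3 start holds 1 near the midpoint.

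Because the start regions of Tle1 and Tle4 had the highest ab1 and ab2 scores of their loci and a pair of peaks lay over the start of Tle3, the bases just before their starts are shown, from RefSeq on build GRCm38.p6, read in the direction of the gene. Capitals mark the loose E-box CANNTG. The Tle1 stretch is the minus strand of chr4:72200920-72201143. The Tle3 stretch is the plus strand of chr9:61372116-61372365. The Tle4 stretch is the minus strand of chr19:14598184-14598433, the more upstream of 2 RefSeq promoters of that gene.
Tle1 promoter: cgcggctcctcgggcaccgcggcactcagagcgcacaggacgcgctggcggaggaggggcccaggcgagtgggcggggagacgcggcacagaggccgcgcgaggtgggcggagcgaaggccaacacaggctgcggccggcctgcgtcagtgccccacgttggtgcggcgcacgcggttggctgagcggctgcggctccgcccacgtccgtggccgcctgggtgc
Tle3 promoter: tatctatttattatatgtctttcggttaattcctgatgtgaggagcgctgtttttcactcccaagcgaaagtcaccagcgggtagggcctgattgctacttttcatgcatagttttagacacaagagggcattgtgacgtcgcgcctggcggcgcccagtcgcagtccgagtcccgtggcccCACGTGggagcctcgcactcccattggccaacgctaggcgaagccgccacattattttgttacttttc
Tle4 promoter: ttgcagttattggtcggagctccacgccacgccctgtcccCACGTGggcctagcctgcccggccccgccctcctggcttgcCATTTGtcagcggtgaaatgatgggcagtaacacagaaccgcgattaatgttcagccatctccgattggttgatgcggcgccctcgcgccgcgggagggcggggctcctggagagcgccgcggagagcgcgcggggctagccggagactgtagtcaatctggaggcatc
All 3 stretches lie within the start regions described above, that of Tle3 under the pair with scores of 700 and 261 and not under the stronger upstream pair. The stretches are parts of RefSeq promoters of 300 bases. Neither they nor the full 300 bases hold an extended E-box, which 26.3% of the 32851 RefSeq promoters of that length hold. The Tle1 stretch and its full 300 bases have no CANNTG at all, a sequence found in 72.3% of promoters. Those of Tle3 and Tle4 each hold CACGTG, which 7.15% of promoters hold and which is outside the motif searched. The Tle4 stretch also holds CATTTG. The other Tle4 promoter, chr19:14597164-14597463, lies under the same start region and holds neither CANNTG nor an extended E-box. A match is a string of letters here and not a measured site, and bases beyond these windows were not searched in this way.

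Other genes of the pathway were taken as a list of 25, chosen with earlier results of these data known. It holds Aes and Tle6, 21 transcription factors that recruit TLE proteins, and the deacetylases Hdac1 and Hdac2. A shared region was present in 20 of 25 windows, beside 67.6% of protein-coding genes, a region of all 3 antibodies in 8, beside 26.7%, and a shared region at the start in 3, beside 20.8%. The median density of the list was 1.40 shared regions per 100 kb, at the 57.9 percentile of protein-coding genes.

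Among these partners, Fezf2, a factor of subcerebral projection neurons, had the highest count, with 9 shared regions, 4 of them with all 3 antibodies, and a density at the 99.5 percentile. Hes1 and Hes5, effectors of Notch signaling, had 4 shared regions each, with densities at the 91.0 and 91.4 percentiles. Hes6 had 3, at the 84.0 percentile. Hes5, Hes6 and Hdac2 were the list members with the midpoint of a shared region within 1000 bp of the start. Fezf2 was not counted by this rule, and the authors report NEUROD2 at its promoter by ChIP with quantitative PCR. Of the Wnt factors, Tcf7l2 had 5 shared regions, with a density at the 63.5 percentile. Tcf7, Tcf7l1 and Lef1 had 3 each, at the 74.5, 54.8 and 57.9 percentiles. Six6, Hhex, Dbx1, En2 and Gbx2 had none. Aes and Tle6 had 3 each, at the 81.2 and 79.8 percentiles. Because the windows overlap, all 3 of Aes and 2 of Tle6 are also regions of the Tle2 window.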

How the data were processed

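The authors mapped single-end reads of each ChIP-Seq library to mm10 with Bowtie, removed duplicate reads and reads that mapped to several places, and ran MACS separately on each NEUROD2 library, with the host-matched GFP library as control. Scores are as deposited, computed by the peak caller of the authors as −log10 p multiplied by 10, and listed from 50 upwards. The GFP libraries have no list of their own and were used by the authors as the controls only. The deposited lists start their positions at 0, and positions here count from 1.

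Genes and transcripts came from GENCODE M21, sequence from RefSeq GRCm38.p6, the same build as mm10. Peaks on unplaced sequences, 5 in all, were left out. Peaks were selected with 50 kb at each end of a gene and merged with an overlap of at least 1 bp. The same rule was run on all 21938 protein-coding genes to give the background, and percentiles count ties at their middle. Merged regions were placed by their midpoints. E-boxes were searched on both strands and each 6-base core was counted once. Exact binomial intervals cover counting error only. Motifs were read from the reference strain and not from BALB/c, whose variants were not examined.

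The members, the partner list and the rules for named regions were chosen with earlier results of these data known. The partner list has 25 genes, and 1 more gene planned for it is not reported here. Named regions were those shared within 1000 bp of the start, those with all 3 antibodies and the 3 with the highest ab1 score in each locus, and further regions were named after their values had been seen. Likeness was the Euclidean distance over the 3 antibodies. Merging, windows and motif search were tested on simulated data. The tools were Python 3.11.15, numpy 2.4.6, scipy 1.17.1 and matplotlib 3.10.9. Alternatives were a minimum score of 100, 50% of the shorter peak as the overlap, each antibody left out, 20 or 100 kb, all annotated genes, other motif windows and forms, and other start distances.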

Additional observations from a re-analysis of the deposited data

How the results depend on the processing

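Of 73 alternative values, 49 stayed within 1.5 times a count, within the interval of a share or within the SD of a rank, and 24 did not. With peak scores of at least 100, shared regions at Tle2 numbered 1 and regions of all 3 antibodies at Tle4 numbered 0. The density of Tle1 then ranked at 77.7, above that of Tle2 at 59.8, a value within the SD of the Tle2 rank. With 20 kb at each end Tle2 had 1 shared region and with 100 kb it had 6. Within 500 bp of the start, 1 member had a shared region, Tle4. The E-box share was 75.0% in 400 bp (75.6% of all shared regions) and 75.0% with CANNTG (83.7%).

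Leaving out each antibody in turn, shared regions ran from 0 to 3 at Tle1, from 0 to 3 at Tle2, from 1 to 8 at Tle3 and from 3 to 10 at Tle4. The density rank ran from 36.6 to 61.8 for Tle1, from 36.6 to 77.8 for Tle2 and from 79.5 to 96.4 for Tle3, and members with a shared region at the start from 1 to 3. The low values came without ab1 or without ab2, when ab3 with its 7470 peaks had to hold a peak in each shared region, and leaving out ab3 gave the main counts. Tle4 alone kept its rank, at 93.2 without ab1 or ab2.

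No paired analysis was possible because each antibody has 1 library and no result comes from a test. Peak lists hold no depth, so a missing peak means only that no score of 50 or more was listed.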
